A study of Mus musculus with 6 samples.

Results

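Nucleotide excision repair is the pathway that cuts bulky lesions, such as those left by ultraviolet light, out of DNA as a short single-stranded piece and refills the gap. Damage is found either anywhere in the genome, by the XPC complex and the DDB1-DDB2 complex, or where it stalls RNA polymerase II, by the CSB and CSA proteins. TFIIH then opens the helix, XPA checks the damage and holds the complex together with the single-strand binding protein RPA, and a pair of nucleases cuts on either side. In the liver, XPA is also known as a factor whose amount follows the circadian clock.

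Of the 40879 gene symbols counted in each library, 10 genes are described here: Xpa, Xpc, Ddb1, Ddb2 and Ercc1 to Ercc6. They were matched by symbol, and all 10 were found. The set was chosen by a measured value, the difference in Xpa between the treated and control libraries, and the other 9 genes were joined to it as parts of the same pathway. Folds between the groups are therefore given for the 10 genes as a description, with no test.

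The libraries came from primary hepatic stellate cells of wild-type male mice. Stellate cells lie around the liver sinusoids, hold vitamin A and make matrix once activated. One group of 3 libraries was kept with vehicle and the other group of 3 with APB-R3, an engineered form of IL-18 binding protein, for 24 h. The dose of 150 µg is given per ml in the series text but per kg in the protocol of the samples, and which holds is not known here. The labels do not tell whether replicates stem from separate animals or cultures, so a p-value reflects no more than how far these libraries scatter, which may be technical.

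The library kit reads transcripts near their 3' end, and longer transcripts do not give more reads. Levels are in CPM, the counts scaled to a common library total, and were compared between genes with no correction for length. The libraries held 8323809 to 10792531 counts, the smallest being APB-R3 replicate 1, where 1 count equals 0.121 CPM. APB-R3 replicate 1 also had 36.7 CPM of the cytokine gene Il1b against 0.474 to 2.24 CPM elsewhere. Vehicle replicate 2 stood apart in the summed level of the 9 hepatocyte markers, 95.2 CPM there and 6.4 to 14.7 CPM in the other libraries. Not all of these markers were highest there. Ttr had 3.92 CPM in it and 5.86 CPM in APB-R3 replicate 3, and Cyp2e1 0.191 CPM in it and 0.957 CPM in vehicle replicate 1. The 10 stellate cell markers summed to 643 to 721 CPM in vehicle and 631 to 667 CPM with APB-R3, with Acta2 alone lower in every APB-R3 library (131 ± 2.41 and 97.2 ± 15.7 CPM). The 10 liver endothelial markers summed to 6480 to 7043 CPM in vehicle and 6176 to 6837 CPM with APB-R3. The 10 macrophage markers summed to 320 to 424 and 361 to 493 CPM. In the endothelial and the macrophage list 1 marker each had groups that did not overlap, endothelial Tek lower (48.3 ± 0.420 and 47.1 ± 0.784 CPM) and macrophage Lyz2 higher (82.9 ± 20.6 and 99.3 ± 5.99 CPM). Groups did not overlap in 4.43% of all tested genes with APB-R3 higher and in 4.38% with APB-R3 lower. Neutrophil markers summed to 8.32 CPM or less, with Ly6g at 0 counts. Lymphocyte markers summed to 0.0956 CPM or less, with Cd3e, Cd79a and Cd8a at 0. Over the 6 libraries the median marker had 12.8 CPM in the stellate list and 620 CPM in the endothelial list. Dcn (308 CPM), Col1a1 (139 CPM), Acta2 (114 CPM) and Col3a1 (58.3 CPM) led the stellate list. Its other markers ran from 1.68 CPM (Lrat) to 14.0 CPM (Rgs5). The repair genes were thus measured in whole cultures with much endothelial RNA, and their levels cannot be assigned to stellate cells. In such cultures fewer cells of a type and less RNA per cell cannot be told apart. The part of these other cells in the values below was not tested.

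The bases before the start of a gene are shown for Xpa, Ercc5 and Ercc6. Xpa is the member on whose difference the set was chosen, and Ercc5 is the member nearest to it in vehicle. Ercc6 is the only matched member with an E-box in this window. RefSeq's promoter table (build GRCm38.p6, where the counts were made on GRCm39) held 7 of the 10 members, Xpa, Ddb1, Ercc1, Ercc2, Ercc4, Ercc5 and Ercc6. The 250 bases upstream of the annotated start are printed 5' to 3' on the gene's own strand, for Xpa from chr4:46196312-46196561 (minus strand), for Ercc5 from chr1:44147494-44147743 (plus strand) and for Ercc6 from chr14:32513271-32513520 (plus strand). Capitals mark CACGTG, the E-box bound by the clock factors, and GCGCATGC, most of the palindrome bound by the factor NRF1.
Xpa: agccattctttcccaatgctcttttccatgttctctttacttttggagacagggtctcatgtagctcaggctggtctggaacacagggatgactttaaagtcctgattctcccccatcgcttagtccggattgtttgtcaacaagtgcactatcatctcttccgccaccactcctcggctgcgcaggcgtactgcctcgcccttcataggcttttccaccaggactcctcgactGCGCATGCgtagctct
Ercc5: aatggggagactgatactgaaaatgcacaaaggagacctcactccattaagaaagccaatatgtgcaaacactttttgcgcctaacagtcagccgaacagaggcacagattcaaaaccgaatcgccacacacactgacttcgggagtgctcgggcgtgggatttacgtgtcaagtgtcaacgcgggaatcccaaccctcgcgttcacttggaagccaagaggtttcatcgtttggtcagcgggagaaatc
Ercc6: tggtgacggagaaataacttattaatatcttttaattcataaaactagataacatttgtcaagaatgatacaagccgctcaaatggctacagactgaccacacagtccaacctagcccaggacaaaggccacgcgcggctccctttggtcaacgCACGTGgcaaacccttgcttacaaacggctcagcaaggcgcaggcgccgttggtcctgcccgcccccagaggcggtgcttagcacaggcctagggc

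The motifs were chosen with the sequences in view and searched on both strands, 4 in all. CACGTG reads the same on both strands. GCGCATGC does not, and in the Xpa window it was found only on the printed strand. Neither motif overlaps the other in these windows. The letters GCGCATGC began 16 bases before the start of Xpa and were in none of the other 6 windows of members. They occurred in 2.26% of all 32851 upstream windows in the table. The E-box began 96 bases before the start of Ercc6 and occurred in 6.02% of all windows. The GC content was 52.0% in the Xpa window and 52.4% in that of Ercc6. The other motifs searched were CCAAT, bound by the factor NF-Y, found in the windows of Xpa, Ercc2, Ercc4 and Ercc5 and in 33.8% of all windows, and TGACG, the core of the cAMP response element, found in those of Ercc2 and Ercc6 and in 17.8% of all windows. A match of letters is a description of the sequence and no evidence of binding.

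Ddb1 was by far the most abundant of the 10 transcripts. It had 761.7 ± 55.7 CPM over the 6 libraries (SD, n = 6), above 98.8% of the tested genes, and took 74.1% to 77.9% of the counts of all 10 members. DDB1 is the adaptor of the CUL4 ubiquitin ligases and serves many partners besides DDB2. Xpc followed with 61.3 ± 8.83 CPM and Ercc3 with 55.4 ± 7.83 CPM. These overlapped, Xpc being the higher in 4 of 6 libraries. A middle group held Xpa (24.3 ± 5.21 CPM), Ercc1 (21.5 ± 2.27 CPM), Ercc2 (21.2 ± 4.42 CPM) and Ercc5 (19.5 ± 0.981 CPM), whose ranges overlapped from each to the next. Ercc6 had 14.6 ± 2.39 CPM and Ercc4 12.1 ± 2.02 CPM, again with overlap. Ddb2 was the lowest with 2.25 ± 0.686 CPM, or 10 to 30 counts in a library, and lay below Ercc4 in every library. The median of the 10 mean levels was 21.4 CPM, the same as the median of 21.4 CPM over all 12776 tested genes.

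**Figure D1:**
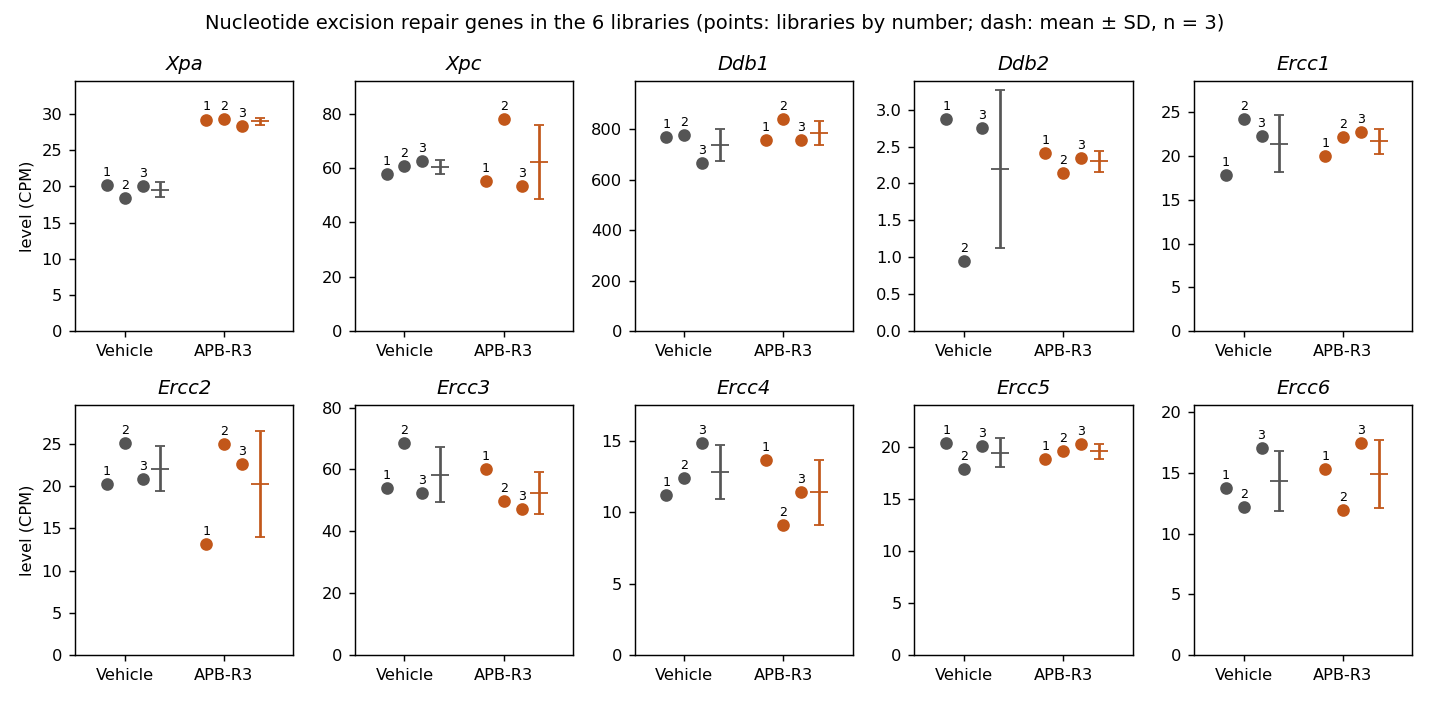
Level in CPM of each member in the 3 vehicle (grey) and 3 APB-R3 (orange) libraries, with points numbered by replicate and the mean ± SD beside them. Xpa is the one gene whose groups do not overlap, with 18.4 to 20.2 CPM in vehicle and 28.4 to 29.3 CPM in APB-R3.

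Xpa encodes the scaffold that binds the opened, damaged strand and brings in the ERCC1-XPF nuclease. It had 20.2, 18.4 and 20.1 CPM in vehicle replicates 1 to 3 and 29.2, 29.3 and 28.4 CPM in APB-R3 replicates 1 to 3. All 3 treated libraries lay above all 3 controls, with a gap between the groups larger than the spread within either. The means were 19.5 ± 1.03 and 29.0 ± 0.494 CPM (SD, n = 3 each), 48.2% higher with APB-R3. The fitted log2 fold change was 0.57 (SE 0.15), with a 95% interval from 0.26 to 0.87 that is not adjusted for the number of genes.

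These levels rest on 192 to 212 counts in a vehicle library and 242 to 314 in an APB-R3 library. Exact Poisson 95% intervals, which cover counting error only, ran from 15.9 to 23.1 CPM over the vehicle libraries and from 25.2 to 33.2 CPM over the APB-R3 libraries. Pooled over the groups, 615 and 847 counts gave a ratio of 1.48, with an exact binomial 95% interval from 1.33 to 1.65 for counting error. Both kinds of interval leave out the scatter between libraries. They describe the difference on which Xpa was picked and add no support for it. The SD of Xpa within the groups, 0.806 CPM, was 0.516 times the 1.56 CPM that counting error alone gives. Among the 4645 genes with 10 to 50 CPM the median of this quotient was 2.05, and 0.431% of them had one as low as that of Xpa. The SDs of Xpa, smaller than counting error gives, understate the error of its means.

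The log2 fold change of Xpa was 0.57 with TMM scaling, with DESeq2's size factors and with library totals alone. Ercc5, the nuclease gene nearest to it in vehicle and chosen with its values in view, is set beside it within each library. The ratio of Xpa counts to Ercc5 counts was 0.991, 1.03 and 1.0 in the vehicle libraries and 1.55, 1.5 and 1.40 in the APB-R3 libraries. Against Rpa1, which encodes the large subunit of RPA, the ratio was 0.378, 0.435 and 0.434 in vehicle and 0.686, 0.625 and 0.567 in APB-R3. Since Xpa was picked on its difference and the other 2 genes differ little between the groups, the ratios restate that difference and add no support for it. Of the counts of the members other than Ddb1, Xpa made up 7.64% to 9.25% in vehicle and 11.9% to 12.8% in APB-R3. The summed level of the other 8 genes ran from 198 to 222 CPM in vehicle and 197 to 218 CPM with APB-R3, with full overlap.

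In the whole comparison, 0 of 12776 tested genes had an adjusted p under 0.05 by edgeR's quasi-likelihood test, that is 0% of them, and so 0 of the 10 members. The lowest adjusted p of any gene was 0.9998. By the size of its rise Xpa took place 468 among the tested genes. At an unadjusted p under 0.05, 1.75% of the tested genes were higher with APB-R3 and 1.57% lower, 425 in all, with 376 by DESeq2 and 427 by limma-voom, which also passed 0 genes. Among the members 1 gene, Xpa, was in this group by each of the 3 tools. The groups did not overlap with APB-R3 higher in 4.43% of the tested genes and with APB-R3 lower in 4.38%. The counts among the members were 1 and 0. Since Xpa was picked on this contrast, its place in these counts says nothing further.

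**Figure D2:**
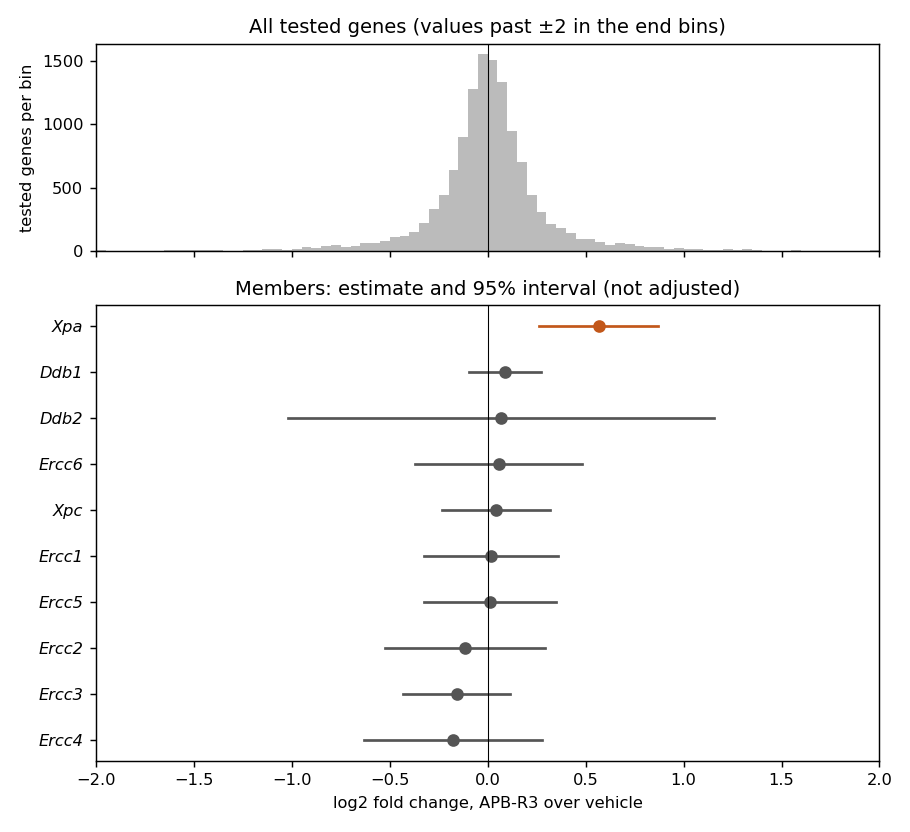
Top, the number of tested genes by log2 fold change of APB-R3 over vehicle, in bins of 0.05. Bottom, the 10 members with their estimates and unadjusted 95% intervals, with Xpa, on whose difference the set was chosen, at 0.57 and the other 9 members between −0.18 and 0.09.

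Among the genes that find damage anywhere in the genome, Xpc encodes the sensor of helix distortion. It had 57.8, 60.7 and 62.7 CPM in vehicle and 55.3, 77.9 and 53.4 CPM with APB-R3. APB-R3 replicate 2 was high, and the other APB-R3 libraries lay below all controls. The log2 fold change was 0.04 (SE 0.13) and turned to −0.15 without that library. Ddb1 had 772, 777 and 667 CPM in vehicle and 757, 841 and 757 CPM with APB-R3, with overlap and a log2 fold change of 0.09 (SE 0.09, 95% interval −0.09 to 0.27), which was 0.020 with vehicle replicate 3 out. Ddb2 encodes the subunit of the DDB complex that touches the lesion and is a known p53 target in human cells. It had 2.87, 0.956 and 2.75 CPM in vehicle and 2.42, 2.14 and 2.34 CPM with APB-R3. Vehicle replicate 2, with 10 counts, was the low one, and its exact Poisson 95% interval of 0.459 to 1.76 CPM ended below the 1.94 CPM where that of vehicle replicate 1 began. This is also the library with the high sum of hepatocyte markers, and the part of hepatocyte RNA in the low value was not tested. For Ddb2 the log2 fold change was 0.07 (SE 0.52), and −0.28 without that library. Its 95% interval, −1.02 to 1.15, shows how little such counts can resolve.

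Ercc6 encodes CSB, the ATPase that binds stalled RNA polymerase II. It had 13.8, 12.1 and 17.1 CPM in vehicle and 15.3, 11.9 and 17.5 CPM with APB-R3, 2 nearly equal sets with a log2 fold change of 0.06 (SE 0.20). It fell below 0, to −0.05, without vehicle replicate 2 and −0.08 without APB-R3 replicate 3.

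Ercc3 and Ercc2 encode XPB and XPD, the translocase and the helicase of TFIIH, which is also a general transcription factor. Ercc3 had 54.1, 68.6 and 52.4 CPM in vehicle and 60.2, 49.8 and 47.1 CPM with APB-R3. The groups overlapped, and the log2 fold change was −0.16 (SE 0.13), between −0.27 (APB-R3 replicate 1 out) and −0.022 (vehicle replicate 2 out). Ercc2 had 20.3, 25.2 and 20.9 CPM in vehicle and 13.2, 25 and 22.6 CPM with APB-R3. APB-R3 replicate 1 was low with 109 counts, and its counting interval ended at 15.9 CPM, below those of all 5 other libraries, the lowest of which began at 17.6 CPM. The log2 fold change of Ercc2 was −0.12 (SE 0.20) and turned to 0.11 without that library, which is also the one with the high Il1b level and the smallest total. The ratio of Ercc3 to Ercc2 counts was 4.57 in it and 1.99 to 2.73 elsewhere.

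The nucleases cut on either side of the lesion, XPG (Ercc5) on the 3' side and ERCC1-XPF (Ercc1 with Ercc4) on the 5' side. Ercc5 was the steadiest of the 10 genes, with 20.4, 17.9 and 20.1 CPM in vehicle and 18.8, 19.6 and 20.3 CPM with APB-R3. Its coefficient of variation over the 6 libraries was 5.03%, against 7.31% to 30.5% for the other members. The SD of Ercc5 within the groups, 1.09 CPM, was below the 1.39 CPM that counting error alone gives, so its low spread need not be a trait of the gene. The coefficient of Xpa, 21.5%, holds the difference between its groups. The log2 fold change of Ercc5 was 0.01 (SE 0.16), with a 95% interval from −0.33 to 0.35. Ercc1 had 17.8, 24.2 and 22.3 CPM in vehicle and 20.1, 22.2 and 22.7 CPM with APB-R3, with a log2 fold change of 0.02 (SE 0.16). Ercc4 had 11.2, 12.4 and 14.9 CPM in vehicle and 13.6, 9.14 and 11.4 CPM with APB-R3, with overlap and a log2 fold change of −0.18 (SE 0.22). With 1 library left out it ran from −0.32 (APB-R3 replicate 1 out) to −0.037 (APB-R3 replicate 2 out). The 2 proteins form a heterodimer. The ratio of Ercc1 to Ercc4 counts ran from 1.5 to 1.95 in vehicle and from 1.47 to 2.43 in APB-R3. It rests on 98 to 157 counts of Ercc4 in a library, and whether it varied beyond counting error was not tested.

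Apart from Xpa, 6 of the 9 members had a log2 fold change above 0 and 3 below, with a median of 0.02 and a range from −0.18 to 0.09. Over all tested genes 50.7% were above 0, with a median of 0.003. Over 14 other settings the log2 fold change of Xpa ran from 0.52 to 0.59. These settings reuse the libraries on which Xpa was picked, so its narrow range adds no support for the difference. Ddb1 stayed above 0 and Ercc3 and Ercc4 below 0 in all 14. Each of the other 6 members changed sign in 1 to 3 of them.

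**Figure D3:**
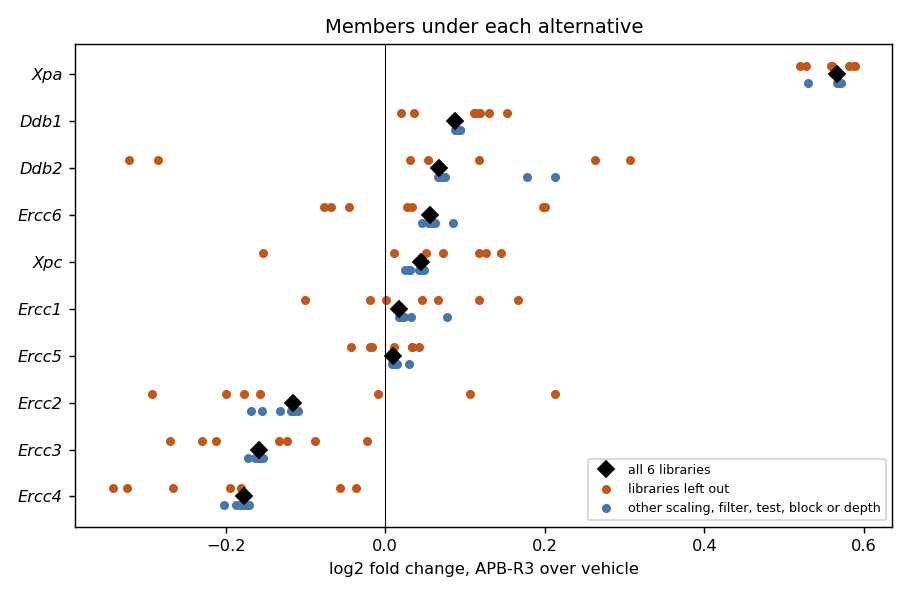
The log2 fold change of APB-R3 over vehicle for each member with all 6 libraries (diamonds), with libraries left out (orange) and under another scaling, filter, test, block or depth (blue). The values of Xpa run from 0.52 to 0.59, and those of all other members lie between −0.34 and 0.31. Xpa was picked on its difference in these libraries, so its distance from the others adds no support for it.

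No gene in the RefSeq table overlapped Xpa. Its neighbour on one side, Ncbp1, a subunit of the nuclear cap-binding complex, had 71.7 ± 6.03 CPM in vehicle and 72.0 ± 3.36 CPM with APB-R3, with a log2 fold change of 0.01 (SE 0.11). Its neighbour on the other side, the noncoding RNA Gm31617, had 0 counts in all libraries. Some other members do share ground with another gene, and since the strand setting of the counting is not given, their counts are less certain. Ddb2 overlaps the phosphatase gene Acp2, with 37.4 ± 5.38 and 43.0 ± 2.75 CPM, and Ercc2 overlaps Klc3, with 1 to 10 counts. Ercc1 overlaps Cd3eap, a symbol that was not matched in the files.

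The other genes of the pathway were taken from a list of 43, of which 42 were tested and Pold4 was too low. None passed edgeR's test at an adjusted p under 0.05 in either direction, and 16 had a log2 fold change above 0 and 26 below. Their median was −0.03, against 0.003 for all tested genes, 50.7% of which were above 0. At an unadjusted p under 0.05 there were 0 higher and 3 lower, against 1.75% and 1.57% of all tested genes, with 2 by DESeq2 and 3 by limma-voom. The groups did not overlap in 0 of them with APB-R3 higher and in 2 with APB-R3 lower, against 4.43% and 4.38% of all tested genes, so that the share on the lower side is near that background.

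Partners of the damage sensors had values near each other in the groups. Rad23b, which stabilizes XPC, had 212 ± 16.3 CPM in vehicle and 228 ± 14.6 CPM with APB-R3. Cetn2, a further XPC partner, had 65.4 ± 6.98 and 66.4 ± 7.80 CPM. Cul4a, the cullin of the DDB ligase, had 68.5 ± 6.72 and 76.6 ± 5.60 CPM, and its RING partner Rbx1 had 90.4 ± 3.94 and 90.8 ± 8.82 CPM. On the transcription-coupled branch, Ercc8, which encodes CSA, had 2.48 ± 0.261 and 2.99 ± 0.972 CPM. Uvssa had 19.7 ± 3.22 and 19.5 ± 3.29 CPM and the elongation factor gene Elof1 36.8 ± 3.46 and 34.3 ± 2.14 CPM. The groups overlapped in each of these 7 genes. Rad23b was more abundant than its partner Xpc in every library, with a ratio of Xpc to Rad23b counts of 0.226 to 0.349.

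Of the 8 other TFIIH genes 6 had a log2 fold change above 0, with a median of 0.03, where 50.7% of all tested genes were above 0. Gtf2h1 had 130 ± 10.1 and 132 ± 11.2 CPM, the small subunit gene Gtf2h5 101 ± 6.26 and 103 ± 8.58 CPM, and the kinase gene Cdk7 33.0 ± 0.646 and 36.4 ± 3.46 CPM. Rpa1, whose protein binds the exposed strand together with XPA, had 47.3 ± 5.67 and 46.5 ± 3.72 CPM. Groups overlapped in these 4 genes too. All 3 RPA genes had a log2 fold change below 0, from −0.32 to −0.02, and none passed.

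Repair synthesis and ligation genes had a log2 fold change below 0 in 14 of 17 tested members, with a median of −0.06. Of all 12776 tested genes, 6295 were below 0. Many of the repair synthesis and ligation genes also serve DNA replication, and what lies behind their share below 0 was not tested. The sliding clamp gene Pcna had 29.6 ± 6.0 and 29.2 ± 2.02 CPM and the ligase gene Lig1 134 ± 4.14 and 128 ± 1.65 CPM, with overlap in both. Pole, the catalytic subunit of DNA polymerase epsilon, had the smallest p on the list. It had 6.70, 6.41 and 8.25 CPM in vehicle and 2.42, 3.92 and 5.47 CPM with APB-R3, so that all treated libraries lay below all controls. Its log2 fold change was −0.84 (SE 0.34), between −1.15 and −0.60 over the 14 other settings (edgeR adjusted p = 0.9998). Pole rests on 67 to 87 counts in a vehicle library and 20 to 56 in an APB-R3 library. The fewest were in APB-R3 replicate 1, the library with the smallest total and the high Il1b level.

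Polk, named after its values were seen, also had an unadjusted p under 0.05. It encodes a translesion polymerase that can also fill repair gaps. Its levels were 51.3, 38.4 and 46.3 CPM in the vehicle libraries and 35.6, 31.8 and 41.4 CPM in the treated ones. Of the APB-R3 libraries, replicate 3 lay within the range of the controls.

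**Figure D4:**
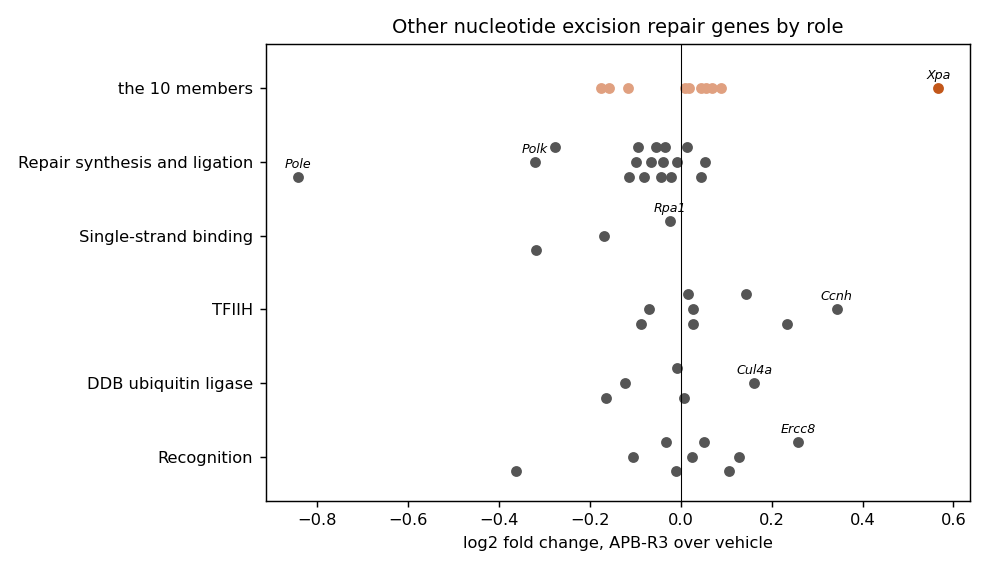
The log2 fold change of APB-R3 over vehicle for the 42 tested other genes of the pathway, by role, with the 10 members in the top row and points spread vertically within a row for legibility. Xpa lies at 0.57 and Pole at −0.84, and no gene passed the test over all genes.

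The lists of other repair pathways had medians near 0 as well. The median log2 fold change was 0.04 over 19 base excision repair genes, 0.02 over 8 mismatch repair genes and −0.03 over 21 tested genes of double-strand break repair, and 0 genes passed in each list. Among the 22 genes of the p53 axis, to which DDB2 and XPC are known to answer in human cells, 7 were above 0 and 15 below. Their median was −0.05 and 0 passed, and of all tested genes 50.7% were above 0. Cdkn1a, the p53 target that stops the cell cycle, had 1057 ± 31.7 CPM in vehicle and 989 ± 188 CPM with APB-R3. Trp53 itself had 52.0 ± 7.73 and 47.7 ± 9.28 CPM. Mdm2, which turns p53 over, had 206 ± 20.8 and 218 ± 27.7 CPM, again with overlapping groups.

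Clock genes are given beside Xpa because of its known circadian control in mouse liver. Of 19 listed, 16 were tested, 13 above 0 and 3 below, with a median of 0.05 and 0 passing. Over all tested genes 50.7% were above 0. The groups did not overlap in 1 clock gene with APB-R3 higher and in 1 with APB-R3 lower, against 4.43% and 4.38% of all tested genes. Bmal1 and Clock, which encode the activator pair, had 6.19 ± 2.36 and 61.7 ± 6.41 CPM in vehicle and 8.29 ± 2.48 and 63.8 ± 7.46 CPM with APB-R3. Nr1d1, which encodes the repressor REV-ERB alpha, had 18.9, 19.0 and 15.5 CPM in vehicle and 15.2, 11.3 and 14.2 CPM with APB-R3. All treated libraries were lower, at a log2 fold change of −0.40 (SE 0.19, edgeR adjusted p = 0.9998). Dbp, an output gene of the clock, had 48.6 ± 10.4 and 57.3 ± 3.47 CPM. Per1 had 12.1 ± 0.551 and 12.4 ± 2.15 CPM, Per2 14.5 ± 1.45 and 11.5 ± 4.17 CPM, and Cry1 11.1 ± 2.78 and 12.5 ± 1.12 CPM. The groups overlapped in these 4 genes. Per3, named after its values were seen, had 6.41, 5.26 and 7.39 CPM in the vehicle libraries and 8.46, 9.42 and 8.20 CPM in the treated ones, with no overlap. The labels used here give no hour of harvest, and the part of the clock in the level of Xpa was not tested.

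The profile of Xpa over the 6 libraries was compared with those of 9708 other named genes with at least 5 CPM. Likeness was measured as the root-mean-square difference between the log2 levels of the genes, each centred on its own mean, so that a distance of 0 means equal profiles. The nearest was Pou6f1, a POU-domain transcription factor gene, at a distance of 0.0761. It had 13.0, 10.3 and 11.8 CPM in vehicle and 16.1, 16.3 and 16.2 CPM with APB-R3. Next came Depdc5, a subunit gene of the GATOR1 complex, at 0.0832, and the kinase gene Nuak1 at 0.0851. The calcium channel gene Cacna1a was at 0.0872 and Nup133, a nuclear pore subunit gene, at 0.0930. All 5 were higher in each APB-R3 library than in any vehicle library, which this measure favours, since Xpa has that pattern. No other member of the repair set was near: the closest, Ddb1, was at 0.261, place 1558 among those genes.

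**Figure D5:**
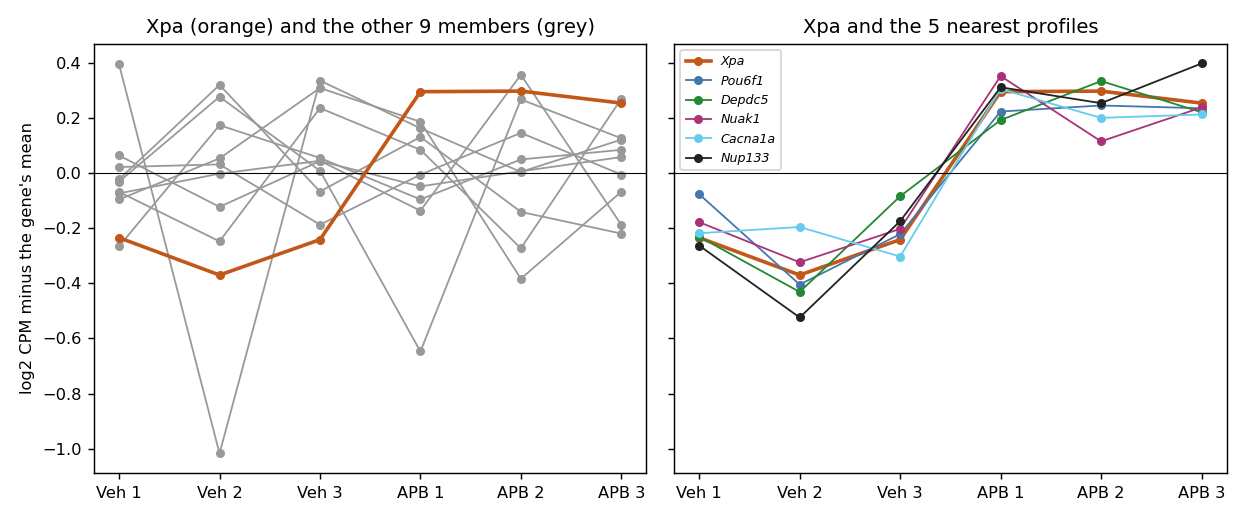
Log2 CPM minus the gene's own mean in each library, for Xpa and the other 9 members (left) and for Xpa and the 5 genes nearest to it (right), with lines only joining the values of 1 gene. Xpa and the 5 nearest genes lie below 0 in all vehicle libraries and above 0 in all APB-R3 libraries, while each other member crosses 0 within at least 1 group.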

How the data were processed

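The authors deposited raw read counts for each gene symbol, 1 file a library. Per the labels' protocols, 500 ng of total RNA went into Lexogen QuantSeq 3' libraries. Per the submitters' processing notes, bcl2fastq 2.20.0.422, fastp, STAR and HTSeq were used on GRCm39. For the other tools no version, and neither annotation, strand setting nor use of molecular identifiers, is given in the sources used here. Counting intervals cover counting error only.

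Groups and replicate numbers came from the sample titles. The column headers inside the files carry replicate numbers 1 higher than the titles, and the titles were followed. Counts were fitted in edgeR 4.0.16 (R 4.3.3) with filterByExpr (minimum count 10, minimum total 15), TMM scaling and glmQLFTest, in a model of treatment alone. The filter left 12776 of 20496 detected genes. Tests are two-sided, with Benjamini-Hochberg adjustment over all tested genes and a threshold of 0.05. CPM are on TMM-scaled totals, and an SE is the log2 fold change over the square root of F. Profiles used log2 CPM with a prior count of 2. Libraries differed pairwise by more than sampling noise (chi-square per degree of freedom 5.54 to 13.6), so none was a copy.

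The members and all lists were chosen with earlier results of these data known. Named genes are the 10 members, pathway, clock and p53 genes fixed by role, the pathway gene with the smallest p, the 5 profiles nearest to Xpa, and neighbours. Polk, Per3 and the markers named singly were added after their values were seen. The lists held 191 entries, all found, 1 under another symbol (Bmal1). Alternatives were DESeq2 1.42.0 (size factors, and its Wald test), library totals, no count filter, limma-voom (limma 3.58.1), a replicate block, thinning to the smallest library, and libraries left out. The values of 1 gene of the pathway list are not reported here.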

Additional observations from a re-analysis of the deposited data

How the results depend on the processing

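With all 6 libraries 0 genes passed edgeR's test. Of the 14 alternatives, no low-count filter gave 20 genes, leaving out 1 library gave between 0 and 1 (1 without vehicle replicate 3), and the others gave 0. None of the 10 members and none of the other pathway genes was among those that passed. The median log2 fold change of the other pathway genes, −0.028, ran from −0.058 (without APB-R3 replicate 1) to −0.013 with 1 library left out, and the cause was not tested. That of Xpa ran from 0.53 to 0.59 with 1 library left out and was 0.52 without both APB-R3 replicate 1 and vehicle replicate 2. Without both, that of Ddb2 was −0.32, of Ercc2 0.21, of Ercc5 −0.020 and of Ercc6 −0.068, each of the other sign. With 1 library left out, Ercc1 turned to −0.10 without vehicle replicate 1 and −0.019 without APB-R3 replicate 3, and Ercc5 to −0.043 without vehicle replicate 2 and −0.017 without APB-R3 replicate 3. With a replicate block the log2 fold change of Xpa was 0.57 and again 0 genes passed. Libraries that share a number deviated together only weakly (correlations of 0.022, 0.027 and 0.048), although each library correlated best with its own number, so the numbers were not taken to pair the libraries. Depth limits Ddb2 most, with 10 to 30 counts a library.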
